A study of Homo sapiens with 6 samples.

Results

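The heat shock proteins and cochaperones described here are 10 genes, HSPA1A, HSPA1B, HSPA8, HSPH1, DNAJB1, HSP90AA1, HSP90AB1, HSPD1, HSPE1 and HSPB1. They were taken by gene symbol from a table of RNA-seq read counts for 17297 genes in LnCaP, a human prostate cancer line in long use that responds to androgen. All 10 symbols were found in the table, and 9 of the 10 had a mean of at least 1 CPM (read counts scaled to a common library size). HSPA1A was the exception, with 12 to 37 reads in a library. No filter on low counts was applied.

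Heat shock proteins are molecular chaperones, which bind unfolded or partly folded proteins and help them to reach or keep their native shape. HSP70 proteins bind and release their clients in an ATP cycle that J-domain cochaperones such as DNAJB1 start and nucleotide exchange factors such as HSPH1 complete. HSP90 receives many clients from HSP70, among them steroid hormone receptors. The androgen receptor, on which LnCaP cells depend, is one such client. When unfolded proteins build up, the transcription factor HSF1 forms trimers and binds heat shock elements, which are inverted repeats of the letters GAA and TTC in front of these genes.

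The study compared a control line carrying the empty retroviral vector (pBabe-vector) with a line carrying GNA13 (pBabe-GNA13), which encodes Gα13, the alpha subunit of a heterotrimeric G protein. Both lines were selected with puromycin, and both were grown for 48 h in 3 plates labelled as biological replicates, giving 6 libraries. The labels name no heat shock or drug treatment. Each condition rests on 1 stable line, so that the effect of GNA13 and a difference that arose when the lines were made cannot be told apart. The wild-type GNA13 cDNA was driven by the viral vector, not by the gene's own promoter.

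The libraries held 33002160 to 40628970 counts, so that 1 count equals 0.0238 to 0.0312 CPM after TMM scaling. GNA13 measured 747 to 886 CPM in pBabe-GNA13 and 65.4 to 76.7 CPM in pBabe-vector, as the labels say (log2 fold change 3.54, adjusted p = 9.12e-05, edgeR quasi-likelihood test). All 9 luminal markers of LnCaP cells were in the table, with summed levels of 5546 to 9175 CPM. Of 6 immune markers CD14 alone was in the table, at 0.0295 to 0.206 CPM. All 3 basal epithelial and all 6 fibroblast markers were in the table, with summed levels of 2.38 to 8.26 and 12.8 to 26.4 CPM, and VWF was the 1 endothelial marker of 4. KRT5, a basal keratin, and COL1A2, a fibroblast collagen, had 0 reads in replicate 2 of both lines, whereas the related KRT14 had 153 and 84 reads and COL1A1 587 and 783 reads in these libraries (pBabe-GNA13 and pBabe-vector). Some of these markers were higher in pBabe-GNA13 when the pairing of the libraries entered the edgeR fit: COL1A2 by 5.13 on the log2 scale (adjusted p = 2.14e-08), KRT5 by 2.52 (7.20e-07), KRT14 by 1.12 (1.71e-05) and COL3A1 by 1.26 (0.0413). COL1A1 was not called (-0.01, adjusted p = 0.964), nor were TP63, DCN, LUM and PDGFRB, with LUM the other way (-0.53). This edgeR fit called 9.32% of all genes higher and 10.4% lower, and it called 29.3% of genes with a mean of at least 50 CPM. Of the 9 luminal markers it called 4 higher and 0 lower. These were KLK2 by 0.93 (adjusted p = 3.19e-11), KRT8 by 0.33 (3.96e-05), KRT18 by 0.25 (0.000504) and KLK3 by 0.21 (0.00764). VWF was higher as well (0.67, adjusted p = 8.57e-06). The part of these markers in the results on the heat shock genes was not tested. Column headings tie each pBabe-GNA13 library to a pBabe-vector library by a number or by the tag std, and these are called pair std, pair 2 and pair 3. What the tag means is not given in the sources used here. The pBabe-GNA13 library with the tag is named the std library, and its partner is pBabe-vector replicate 1.

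Heat shock elements are known in front of many of these genes, so the 250 bases before the transcription start of each member were read from the RefSeq promoter table (GRCh38.p14). The motif searched was a repeat of 2 units, GAANNTTC or TTCNNGAA, each of which reads the same on both strands. A match was found for 7 of the 10 members, against 11.6% of 35116 promoter windows. The motif of 3 units adds NNGAA to the end of the first or NNTTC to the end of the second, which are each other's reverse complement, so that every match also holds 2 overlapping matches of the shorter motif. It was present in 3 of the 10 members, HSPA8, HSP90AA1 and HSPD1, against 0.441% of all windows. The windows of HSPA8 (chr11:123062137-123062386, minus strand), HSP90AA1 (chr14:102087045-102087294, minus strand), HSPD1 (chr2:197499841-197500090, minus strand), DNAJB1 (chr19:14518398-14518647, minus strand), HSPA1A (chr6:31815293-31815542, plus strand) and HSPA1B (chr6:31827488-31827737, plus strand) are shown 5′ to 3′ along the gene, with the bases of every match in capitals. The first 3 hold the longer motif, DNAJB1 follows HSPA1B across the libraries, and the last 2 are near copies with very different counts.
HSPA8: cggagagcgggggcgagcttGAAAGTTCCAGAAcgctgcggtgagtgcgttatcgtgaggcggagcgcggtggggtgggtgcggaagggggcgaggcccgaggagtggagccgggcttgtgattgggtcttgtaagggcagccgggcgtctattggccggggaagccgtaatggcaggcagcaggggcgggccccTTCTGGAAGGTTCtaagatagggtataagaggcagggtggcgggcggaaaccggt
HSP90AA1: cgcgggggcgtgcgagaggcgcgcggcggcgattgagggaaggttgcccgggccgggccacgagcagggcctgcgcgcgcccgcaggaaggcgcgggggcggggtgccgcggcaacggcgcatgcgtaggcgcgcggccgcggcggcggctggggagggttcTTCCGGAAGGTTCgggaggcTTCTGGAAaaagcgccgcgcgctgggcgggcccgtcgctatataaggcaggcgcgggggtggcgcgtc
HSPD1: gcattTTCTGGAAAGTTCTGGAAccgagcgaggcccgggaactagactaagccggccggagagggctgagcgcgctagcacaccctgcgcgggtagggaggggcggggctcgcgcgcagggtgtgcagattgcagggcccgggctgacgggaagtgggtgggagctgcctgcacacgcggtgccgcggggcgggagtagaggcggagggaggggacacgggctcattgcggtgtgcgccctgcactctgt
DNAJB1: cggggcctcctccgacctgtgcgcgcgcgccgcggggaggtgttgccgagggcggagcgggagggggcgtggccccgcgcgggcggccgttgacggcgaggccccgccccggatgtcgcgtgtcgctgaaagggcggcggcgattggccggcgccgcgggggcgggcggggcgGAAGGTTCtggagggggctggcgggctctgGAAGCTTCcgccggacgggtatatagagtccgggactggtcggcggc
HSPA1A: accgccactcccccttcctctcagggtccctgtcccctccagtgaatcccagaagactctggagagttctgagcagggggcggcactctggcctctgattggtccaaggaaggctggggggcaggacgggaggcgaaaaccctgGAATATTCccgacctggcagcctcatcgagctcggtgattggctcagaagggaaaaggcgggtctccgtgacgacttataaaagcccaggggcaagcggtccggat
HSPA1B: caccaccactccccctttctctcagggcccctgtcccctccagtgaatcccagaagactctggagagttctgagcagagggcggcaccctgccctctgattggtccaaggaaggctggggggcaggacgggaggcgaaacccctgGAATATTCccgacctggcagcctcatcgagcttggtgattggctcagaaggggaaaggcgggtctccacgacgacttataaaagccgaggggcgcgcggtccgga

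HSPA8 held 2 matches of the longer motif, beginning 230 and 55 bases before the start. HSP90AA1 held 1 of the longer motif and a separate shorter one. In HSPD1 a run of 18 bases at the far end of the window, 245 to 228 bases before the start, held 2 overlapping matches of the longer motif. HSPD1 and HSPE1, which encode the mitochondrial chaperonin and its lid, are transcribed head to head from starts 539 bases apart, so these bases also lie between the starts of both genes, although no match fell in the 250 bases next to HSPE1. DNAJB1 held 2 of the shorter motif, and HSPA1A, HSPA1B and HSPB1 held 1 each. The windows used for HSP90AB1, HSPH1 and HSPE1 held none. For HSP90AB1 another of its 3 listed windows held 4, and the HSPH1 window begins 484 bases from the start in Gencode 44, so that for these genes the result holds for the window used. A match describes the letters and is not a measured binding site.

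The reads of HSPA1A and HSPA1B cannot be fully separated. These neighbouring genes on chromosome 6 encode the stress-inducible HSP70. Their coding sequences are 1926 bases each and differ at 4 bases, an identity of 99.8%, and their promoter windows are 93.6% identical. Of all windows of 150 bases, the read length, 69.6% of the HSPA1A transcript and 70.1% of the HSPA1B transcript occur in another gene as well. Yet HSPA1A had 12 to 37 reads in a library and HSPA1B had 3140 to 4486, although 685 windows of HSPA1A are found in no other gene. How the counting program placed reads that match both copies is not given in the sources used here, and the part of it in the low HSPA1A count was not tested. In Gencode 44, a long non-coding RNA, ENSG00000285565, also covers 36.6% of the HSPA1B exon on the same strand. Whether the HSPA1B row holds reads of HSPA1B alone or of both genes is therefore not known, and HSPA1A is given for completeness.

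The members spanned a wide range of levels. Levels were compared between genes as CPM per kilobase of the annotated main transcript (RPKM), in pBabe-vector as mean and SD over 3 libraries. The constitutive cytosolic HSP70 HSPA8 was at 1130.0 ± 92.6 RPKM, the constitutive HSP90 HSP90AB1 at 964.5 ± 104.9 and the mitochondrial chaperonin HSPD1 at 785 ± 90.3, neighbours in this order whose ranges of 1 SD overlapped. The small heat shock protein HSPB1 followed at 555 ± 107 and the stress-inducible HSP90 HSP90AA1 at 409.7 ± 142, again overlapping. HSPE1, at 177 ± 32.8 RPKM, stood apart from both its neighbours. DNAJB1 at 49.5 ± 10.1, HSPA1B at 38.4 ± 5.19 and HSPH1 at 36.8 ± 16.0 formed the lower end, not separated beyond their spread. HSPA1A was at 0.315 ± 0.148. Of the HSPA1B windows 70.1% occur in another gene, and its level is divided by the whole transcript. Its place thus depends on how shared reads were counted. The order of the 10 genes was the same in pBabe-GNA13. It depends on the length used: per kilobase of all annotated exons, HSP90AB1 came before HSPA8 (827 ± 90.0 against 527 ± 43.2 RPKM in pBabe-vector). HSPD1, at 231 ± 26.6 RPKM, then came after HSPB1 (266 ± 51.1) and HSP90AA1 (259 ± 89.8). DNAJB1, at 13.6 ± 2.77 RPKM, came after HSPA1B (38.4 ± 5.19) and HSPH1 (23.0 ± 10.0). Together the 10 genes took 0.794% to 0.995% of all counts in pBabe-GNA13 and 0.818% to 1.02% in pBabe-vector.

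None of the 10 genes was called different between the lines in the fit with the line as the only term. The edgeR quasi-likelihood test called 24 of 17297 genes at an adjusted p under 0.05, or 0.139%, and 0 of the 10 members. At an unadjusted p under 0.05 it was also 0 of 10, against 8.46% of all genes, and DESeq2 and limma-trend each called 0 of 10. The members' log2 fold changes (pBabe-GNA13 minus pBabe-vector) ran from -0.34 for HSPA1A to 0.17 for HSPA1B. Over the 9 members with at least 1 CPM the median was -0.03, against -0.01 over the 14059 such genes. The 2 groups of 3 libraries overlapped for each member, and exact two-sided permutation tests of the single values gave p = 0.2 to 0.9, where the smallest p that 3 against 3 can give is 0.1. In bulk RNA, fewer cells that express a gene and less RNA per cell cannot be told apart.

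Libraries of the same pair deviated together, and a second fit held the pair as a block. It called 3407 genes, or 19.7%, with 1612 higher and 1795 lower in pBabe-GNA13, and 1 of the 10 members, HSPA8, which was lower. Among the 4762 genes with a mean of at least 50 CPM, where 9 of the members lie, the share called was 29.3%. The members' count depended on the pairs used: it was 1 of 10 without pair 2 (14.7% of all genes), 3 of 10 without pair 3 (13%) and 4 of 10 without pair std (18.9%). Without pair std, HSPA1B and DNAJB1 were called although pairs 2 and 3 went opposite ways (0.51 and -0.06 for HSPA1B, 0.54 and -0.14 for DNAJB1). Calls with a pair left out therefore do not measure the spread between pairs and are given as a description.

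**Figure D1:**
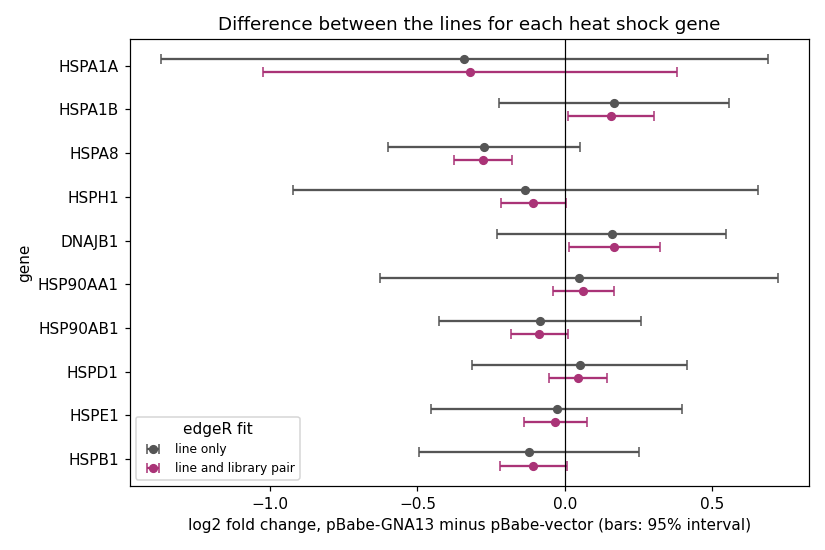
Log2 fold change of each member (x axis, pBabe-GNA13 minus pBabe-vector) from the edgeR fit with the line alone (grey) and with line and library pair (purple); bars are 95% intervals. The HSPA8 interval lies below 0 only with the pair in the fit, and HSPA1A has the widest intervals.

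HSPA8 encodes the constitutive cytosolic HSP70, HSC70, which folds new proteins and uncoats clathrin vesicles. In pBabe-GNA13 it measured 1880.4 CPM in the std library, 2059 CPM in replicate 2 and 2403 CPM in replicate 3. In pBabe-vector it measured 2337 CPM in replicate 1, 2580.1 CPM in replicate 2 and 2754 CPM in replicate 3. The std library and replicate 2 of pBabe-GNA13 lay below all pBabe-vector libraries, replicate 3 did not, and within each of the 3 pairs the pBabe-GNA13 library was the lower. The means were 2114 ± 266 and 2557 ± 210 CPM (SD, n = 3), a log2 fold change of -0.27 ± 0.14 (SE) with an adjusted p of 0.705 in the edgeR fit without the block. With the pair as a block the log2 fold change was -0.28 ± 0.05, with a 95% interval of -0.38 to -0.18 and an adjusted p of 0.000101 (edgeR). Within pairs it was -0.33 in pair 2, -0.20 in pair 3 and -0.31 in pair std. Leaving out any 1 pair gave -0.31 to -0.26, with adjusted p between 1.61e-05 and 4.75e-05 (edgeR). These p-values were smaller than with all pairs although they rest on fewer libraries, so they are not read as a check of the call. The call depended on the test: DESeq2 with the block made it (adjusted p = 1.44e-06), as did edgeR's newer quasi-likelihood method (0.00146), while limma-trend with the block did not (adjusted p = 0.0912). Genes on chromosome 11 were shifted by a median of -0.05 between the lines, and relative to that median HSPA8 was at -0.23 with the block (adjusted p = 0.000341, edgeR).

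HSPA1B, a stress-inducible HSP70, measured 87.5, 131.8 and 106.8 CPM in the std library, replicate 2 and replicate 3 of pBabe-GNA13. In replicates 1, 2 and 3 of pBabe-vector it measured 86.2, 92.7 and 111 CPM. Replicate 2 of pBabe-GNA13 was the highest of the 6 libraries, and the remaining 5 libraries were mixed between the lines. The log2 fold change was 0.17 ± 0.17 (SE, adjusted p = 0.910 in edgeR without the block), with an interval from -0.22 to 0.56. Within pairs it was 0.51 in pair 2, -0.06 in pair 3 and 0.02 in pair std, and with the block 0.16 (adjusted p = 0.131, edgeR). Leaving out pair 2 turned the blocked value to -0.02 (adjusted p = 0.892), whereas leaving out pair 3 gave 0.28 (adjusted p = 0.00305) and leaving out pair std 0.23 (adjusted p = 0.00489). The higher value thus rests on pair 2. The counts of HSPA1A and HSPA1B summed into 1 row gave 0.16 (adjusted p = 0.911, edgeR). HSPA1A alone had 25, 12 and 26 reads in the std library, replicate 2 and replicate 3 of pBabe-GNA13, and 27, 16 and 37 reads in replicates 1, 2 and 3 of pBabe-vector, too few to separate the lines (log2 fold change -0.34 ± 0.44, interval -1.37 to 0.69).

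DNAJB1, the J-domain protein also called HSP40 that loads clients onto HSP70, followed the HSPA1B pattern. It measured 107 CPM in the std library, 141 CPM in replicate 2 and 124 CPM in replicate 3 of pBabe-GNA13, against 98.5, 97.3 and 137 CPM in replicates 1, 2 and 3 of pBabe-vector. Replicate 2 of pBabe-GNA13 was again the highest library, with replicate 3 of pBabe-vector next to it. The log2 fold change was 0.16 ± 0.17 (adjusted p = 0.914, edgeR without the block) and 0.17 with the block (adjusted p = 0.127). Within pairs it was 0.54 in pair 2, -0.14 in pair 3 and 0.11 in pair std. As for HSPA1B, the blocked value turned to -0.02 without pair 2 (adjusted p = 0.905), and it was 0.34 without pair 3 (adjusted p = 0.000152) and 0.20 without pair std (adjusted p = 0.0176).

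HSPH1 encodes HSP110, a nucleotide exchange factor for HSP70 that also prevents aggregation. It measured 125, 158 and 244 CPM in the std library, replicate 2 and replicate 3 of pBabe-GNA13, and 129.6, 161 and 288 CPM in replicates 1, 2 and 3 of pBabe-vector. The levels of the lines were close within each pair and far apart between pairs, with a range of 1.21 on the log2 scale over the 6 libraries. The line difference was -0.13 ± 0.34 (adjusted p = 0.995, edgeR without the block) and -0.11 with the block (adjusted p = 0.179). It was lower in pBabe-GNA13 in 3 of 3 pairs, as were HSP90AB1 and HSPA8, and as were 29.0% of all genes with at least 1 CPM.

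The 2 cytosolic HSP90 genes differed less between the lines than between libraries of a line. HSP90AA1, the stress-inducible form, measured 1048, 1224 and 1827 CPM in the std library, replicate 2 and replicate 3 of pBabe-GNA13, and 913, 1237 and 1817 CPM in replicates 1, 2 and 3 of pBabe-vector. Its log2 fold change was 0.05 ± 0.29, with an interval from -0.63 to 0.72 (adjusted p = 1, edgeR), and with the block 0.06 (interval -0.04 to 0.17). HSP90AB1, the constitutive form, measured 2151, 2149 and 2675 CPM in the std library, replicate 2 and replicate 3 of pBabe-GNA13, and 2249, 2379 and 2765 CPM in replicates 1, 2 and 3 of pBabe-vector. Its log2 fold change was -0.08 ± 0.15 (adjusted p = 0.979, edgeR) and with the block -0.09 (interval -0.18 to 0.01). Their coding sequences are 75.4% identical, and no window of 150 bases of either transcript occurs in another annotated gene, so that their reads can be told apart at this length.

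The mitochondrial pair HSPD1, which encodes HSP60, and HSPE1, which encodes its lid HSP10, showed no difference between the lines beyond the spread of the libraries. HSPD1 measured 1748, 1578 and 2152 CPM in the std library, replicate 2 and replicate 3 of pBabe-GNA13, and 1685, 1610.1 and 1992 CPM in replicates 1, 2 and 3 of pBabe-vector. HSPE1 measured 84.3, 85.4 and 121 CPM in the same order in pBabe-GNA13, and 85.7, 90.7 and 119.5 CPM in pBabe-vector. With the block the interval of the line difference was -0.05 to 0.14 for HSPD1 and -0.14 to 0.08 for HSPE1. HSPE1 shares 17.9% of its exon length with other genes, 192 bases with the readthrough gene HSPE1-MOB4 and 135 bases with HSPD1 on the opposite strand. HSPB1, the small heat shock protein HSP27 that holds unfolded proteins without ATP, measured 353, 409 and 427 CPM in the std library, replicate 2 and replicate 3 of pBabe-GNA13, and 336, 485.5 and 472 CPM in replicates 1, 2 and 3 of pBabe-vector. It was lower in pBabe-GNA13 in pairs 2 and 3 (-0.25 and -0.15) and not in pair std (0.07). The blocked log2 fold change was -0.11 (adjusted p = 0.193, edgeR), and without pair std it was -0.19 (adjusted p = 0.00778).

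**Figure D2:**
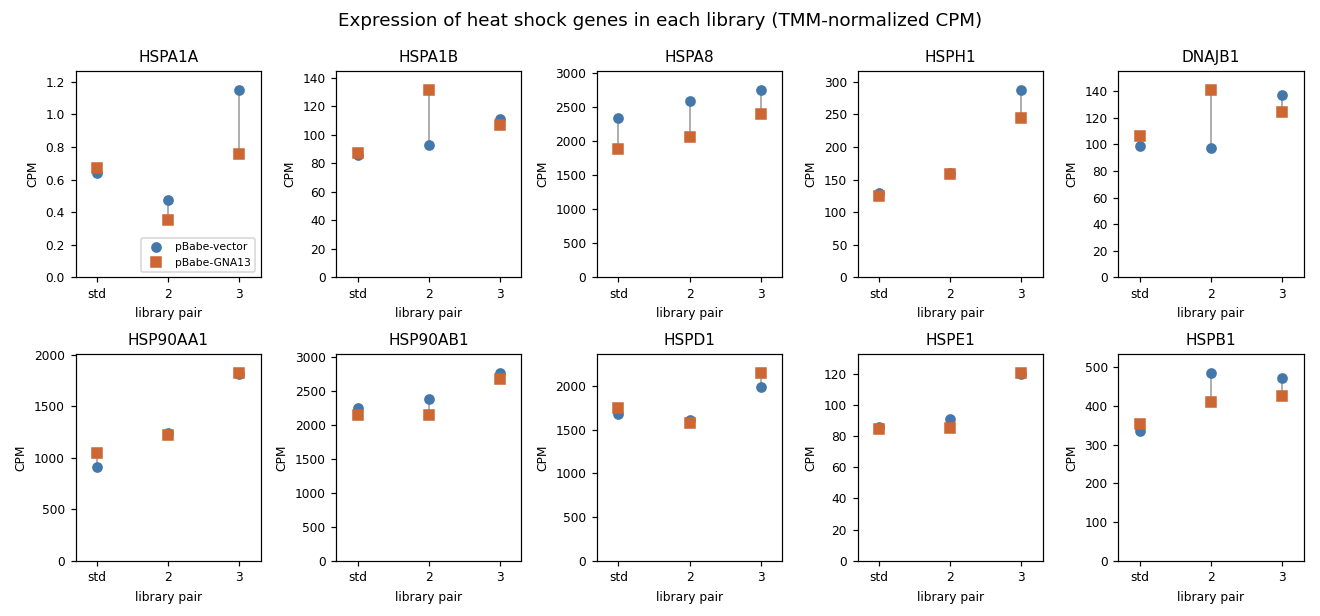
TMM-normalized CPM of each member (y axis, linear from 0) in the 3 library pairs (x axis); circles are pBabe-vector, squares pBabe-GNA13, and a grey line joins the libraries of a pair. HSPA8 squares lie below the circles in every pair, HSPA1B and DNAJB1 squares stand out in pair 2, and HSPH1 and HSP90AA1 are highest in pair 3 in both lines.

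More members were called between library pairs than between lines. HSPA8 was called in both by edgeR. Its line difference with the block was -0.28 (adjusted p = 0.000101). Its steps from pair 2 were 0.16 to pair 3 and -0.14 to pair std (adjusted p of the pair 0.00061). These steps go opposite ways, so pair std and pair 3 lay farther apart than either step. The line difference is therefore not read as larger than the differences between pairs. In the fit with line and pair, edgeR's F-test of the pair called 8193 of 17297 genes, or 47.4%, and 9 of the 10 members, all but HSPA1A (adjusted p = 0.0698). Among genes with a mean of at least 50 CPM the pair was called in 70.6%, so that most genes at the members' level varied in this way. Pair 3 decided part of it. Without pair 3 the count was 5 of 10 members against 18.1% of all genes, without pair 2 it was 9 against 35.1%, and without pair std 8 against 44.8%. The nature of the pairs (day, plate batch or sequencing run) is not given in the sources used here, and marker genes moved with them. KLK3, the androgen-driven gene of prostate-specific antigen, measured 3784 and 4204 CPM in pair 2 and 1836 and 2445 CPM in pair 3. TMPRSS2, another androgen-driven gene, was at 969 and 1098 CPM in pair 2 and at 415 and 455 CPM in pair 3. Their part in the members' differences was not tested.

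HSPH1 and HSP90AA1 showed the widest steps between pairs among the members with over 1 CPM. From pair 2 to pair 3, HSPH1 was 0.74 higher on the log2 scale (adjusted p of the pair 9.99e-13) and HSP90AA1 0.57 higher (adjusted p = 1.49e-11). HSPE1 was 0.45 higher (adjusted p = 2.31e-07), HSPD1 0.38 (1.81e-05), HSP90AB1 0.27 (0.000116) and HSPA8 0.16 (0.00061). HSPB1 differed by 0.01 between these pairs, and its pair effect lay in pair std, at -0.37 from pair 2 (adjusted p = 3.51e-05). HSPA1B and DNAJB1, at -0.03 and 0.15 from pair 2 to pair 3, had the least clear pair effects of the 9 (adjusted p = 0.00184 and 0.00777). The summed CPM of the 10 genes was 7584 and 7920 in pair std, 7936 and 8734 in pair 2, and 10081 and 10458 in pair 3, each time the lower value being that of pBabe-GNA13. In every pair HSPA8 had the largest gap in CPM of the 10 genes, so the lower sum does not describe the whole set. In pair std its gap (1880.4 CPM in pBabe-GNA13, 2337 CPM in pBabe-vector) was wider than that of the sum.

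Replicate 3 was the highest library of its line in both lines for 6 of the 9 members with at least 50 CPM, against 38.7% of all such genes and 30.1% of genes with at least 1 CPM. These 6 were HSPA8, HSP90AA1, HSP90AB1, HSPH1, HSPD1 and HSPE1. The 3 others, HSPA1B, DNAJB1 and HSPB1, were highest in replicate 2 in at least 1 line.

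**Figure D3:**
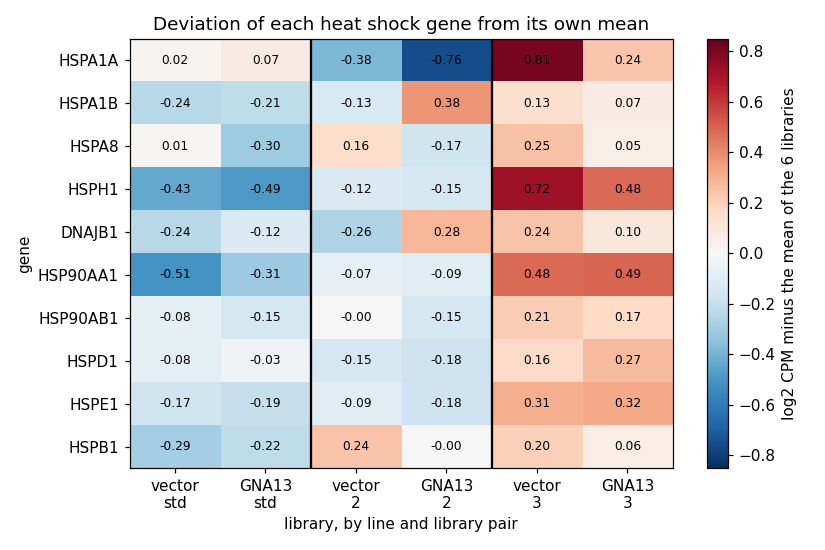
Log2 CPM of each member (rows) in each library (columns, ordered by pair) minus the mean of that gene over the 6 libraries; red is above and blue below the mean, and the value is printed in each cell. Both pair 3 columns are red for HSPH1 (0.72 and 0.48) and HSP90AA1 (0.48 and 0.49), and HSPA1B and DNAJB1 share one raised cell in pBabe-GNA13 of pair 2 (0.38 and 0.28).

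Profiles of mean-centred log2 CPM over the 6 libraries were compared by their root mean square distance, as a description. The closest members were HSPA1B and DNAJB1, with a distance of 0.0859, followed by HSP90AB1 with HSPD1 (0.0912) and with HSPE1 (0.0920), and by HSPD1 with HSPE1 (0.103). HSP90AA1 was closest to HSPH1 (0.129) rather than to HSP90AB1 (0.256). HSPA1A and HSPA1B, although near copies, were the 2 members farthest apart (0.574). HSPA1A had 12 to 37 reads in a library, so counting error enters its distances and its range. How much of them it makes up was not tested. For the 2 members with the widest range over the libraries, the nearest of 9858 other genes were also listed. For HSPA1A these were DEPDC1B, SHCBP1 and BUB1B (distances 0.107, 0.112 and 0.114), of which BUB1B encodes a mitotic checkpoint kinase. No link of HSPA1A to these genes is read from this, as it rests on the same few reads. For HSPH1 they were TELO2 (0.0973), which works with HSP90 in assembling large kinases, GHR (0.0990) and SYTL2 (0.101). The 6 points of every profile share the libraries and the pairs, and HSPA1B and DNAJB1 share a peak in replicate 2 of pBabe-GNA13.

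Ratios of read counts within a library do not depend on its scaling, and 5 were computed between members that work together. The ratio of HSPA1B to the constitutive HSPA8 was 0.0465, 0.0640 and 0.0445 in the std library, replicate 2 and replicate 3 of pBabe-GNA13. In replicates 1, 2 and 3 of pBabe-vector it was 0.0369, 0.0359 and 0.0404. The size of this ratio depends on how reads shared by HSPA1A and HSPA1B were counted. The groups did not overlap (difference of mean log2 ratios 0.44, exact two-sided permutation p = 0.1, the smallest possible, and 0.25 after Benjamini-Hochberg adjustment over 5 ratios). The ratio of DNAJB1 to HSPA8 was 0.0567, 0.0686 and 0.0516 in pBabe-GNA13 and 0.0422, 0.0377 and 0.0498 in pBabe-vector in the same order, likewise without overlap (difference 0.45, exact permutation p = 0.1, adjusted 0.25). Both ratios share the denominator HSPA8 and so are not independent of each other or of its lower count. For single genes with at least 1 CPM, groups without overlap were found for 7.49% with pBabe-GNA13 below and for 7.21% with it above.

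The ratios of HSP90AA1 to HSP90AB1, HSPH1 to HSPA8 and HSPD1 to HSPE1 overlapped between the lines. HSP90AA1 reached 0.487, 0.570 and 0.683 of the HSP90AB1 count in the std library, replicate 2 and replicate 3 of pBabe-GNA13, and 0.406, 0.520 and 0.657 in replicates 1, 2 and 3 of pBabe-vector (exact permutation p = 0.6). The ratio was higher in pBabe-GNA13 in 3 of 3 pairs, by 0.26 in pair std, 0.13 in pair 2 and 0.06 in pair 3 on the log2 scale, less than the range over the libraries of either line. The ratio of HSPD1 to HSPE1 stayed within 16.7 to 20.7 in the 6 libraries (exact permutation p = 0.4) and was higher in pBabe-GNA13 in 3 of 3 pairs, by 0.06 to 0.10 on the log2 scale, and that of HSPH1 to HSPA8 within 0.0555 to 0.105 (exact permutation p = 0.6).

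**Figure D4:**
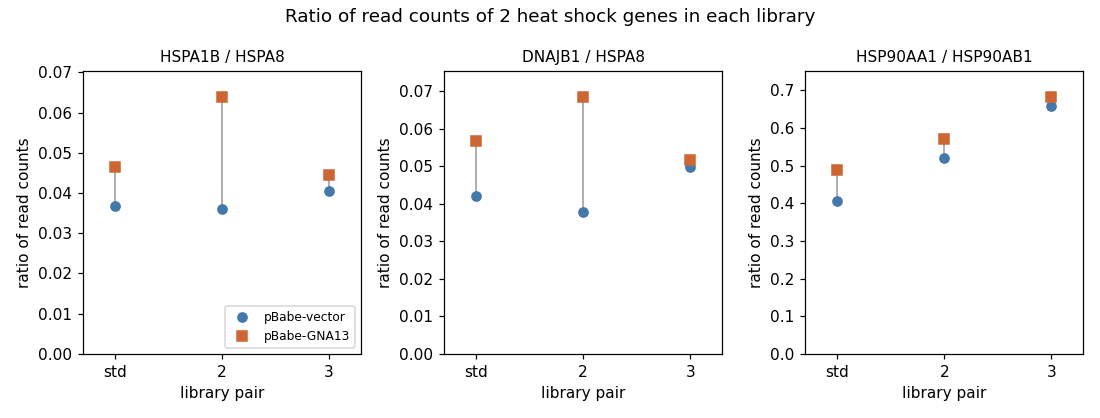
Ratio of read counts of 2 members in each library (y axis, linear from 0) by library pair (x axis); circles are pBabe-vector, squares pBabe-GNA13, and a grey line joins the libraries of a pair. The squares lie above all circles for HSPA1B to HSPA8 and for DNAJB1 to HSPA8, by the least in pair 3, whereas for HSP90AA1 to HSP90AB1 the groups overlap although the square is the higher in every pair.

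The regulators and partners of these genes were taken from lists of chaperone genes. HSF1, the main heat shock factor, measured 108 to 129.5 CPM in pBabe-GNA13 and 113 to 127 CPM in pBabe-vector (log2 fold change -0.01, adjusted p = 1, edgeR). HSF2, a related factor, measured 20.1 to 26.3 CPM in pBabe-GNA13 and 21.7 to 25.0 CPM in pBabe-vector (0.02, adjusted p = 1). Of 8 heat shock factors and binding regulators, 6 were in the table and 0 were called by edgeR, without or with the block, and 0 had an unadjusted p under 0.05 without the block. HSF2BP (-0.51), HSBP1 (-0.13) and HSF4 (0.07) had the smallest p of this list. The activity of HSF1 depends on its protein and is not given by its RNA level.

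Of 20 other target genes of HSF1, 18 had a mean of at least 1 CPM. Without the block 0 of the 20 were called by edgeR and 3 had an unadjusted p under 0.05, all higher in pBabe-GNA13. Among these, SERPINH1 (7 to 33 reads) and HSPA6 (6 to 113 reads) had a mean under 1 CPM. The median of the 18 was 0.04, against -0.01 over all genes. With the block 7 of the 20 were higher and 2 were lower, against 9.32% and 10.4% of all genes. SERPINH1 and HSPA6 were among the 7. HSPA6 and CRYAB were not called without pair 2 (adjusted p = 0.383 and 0.549, edgeR). DNAJA1 was called in 0 of the fits with 1 pair left out, whereas FKBP4 was called in each. Such calls do not measure the spread between pairs. UBB, a stress-responsive ubiquitin gene, measured 258 to 276 CPM in pBabe-GNA13 and 299 to 320.3 CPM in pBabe-vector, without overlap (edgeR log2 fold change -0.21, adjusted p = 0.593 without and 0.00489 with the block, 0.0596 without pair 2). FKBP4, which encodes the HSP90 cochaperone FKBP52 of steroid receptors, was higher with the block (0.39, adjusted p = 1.53e-06) and in 3 of 3 pairs, although its groups overlapped.

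Among the partners of HSP70, no gene of 4 lists was called without the block. With the block, 9.32% of all genes were higher and 10.4% lower, and 29.3% of genes with at least 50 CPM were called. Of 11 other HSP70 family members in the table, 1 was higher with the block and 4 were lower. The higher one was HSPA6, with a mean of 0.954 CPM. The median without the block was -0.13 over the 9 with at least 1 CPM. HSPA5, the HSP70 of the endoplasmic reticulum, measured 621 to 786 CPM in pBabe-GNA13 and 762 to 966 CPM in pBabe-vector (-0.29, adjusted p = 0.637 without and 0.00422 with the block), and was not called without pair 2 (-0.13, adjusted p = 0.119). HYOU1, its exchange factor, showed -0.19 (adjusted p = 0.0208 with the block, 0.312 without pair 2), and HSPA12A, a distant relative, 0.16 (adjusted p = 0.124). Of 21 other J-domain cochaperones 1 was higher and 4 were lower with the block. DNAJC5, the cysteine string protein of secretory vesicles, was lower in 3 of 3 pairs without overlap of the groups (-0.28, adjusted p = 0.000341 with the block), and DNAJC1, of the endoplasmic reticulum, was lower as well (-0.29, 0.00192). DNAJB6 was lower with all pairs (-0.16, 0.0280) and not called without pair 2 (adjusted p = 0.0624) or without pair 3 (0.338). The J-domain list had a median of -0.04.

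Exchange factors and other regulators of HSP70 gave 1 gene higher and 3 lower of 12 with the block, against 9.32% and 10.4% of all genes. BAG1, an exchange factor that also binds BCL2, measured 54.8, 56.2 and 70.3 CPM in the std library, replicate 2 and replicate 3 of pBabe-GNA13 and 43.4, 48.1 and 55.6 CPM in replicates 1, 2 and 3 of pBabe-vector (0.30, adjusted p = 0.620 without and 0.000159 with the block). ST13, the HSP70-interacting protein HIP, was lower (-0.19, adjusted p = 0.00678 with the block, 0.0760 without pair 3), as was GRPEL2, the mitochondrial exchange factor (-0.20, 0.00582). Of 9 other small heat shock proteins 5 were in the table, and 1 was called with the block, against 19.7% of all genes. HSPB11 was at -0.16, HSPB8 at 0.34 and CRYAB, the called gene, at 0.71 (adjusted p = 0.0326), which was 0.36 without pair 2 (adjusted p = 0.549).

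Partners of HSP90 differed mainly between the pairs. Of 15 HSP90 cochaperones in the table, 0 were called without the block by edgeR (0 also at an unadjusted p under 0.05). With it 2 were higher and 1 was lower, against 9.32% and 10.4% of all genes. FKBP4 was the first of these. PTGES3, the cochaperone p23, measured 556 to 803 CPM in pBabe-GNA13 and 496 to 662 CPM in pBabe-vector and was higher with the block (0.26, adjusted p = 0.000367). TOMM34, a mitochondrial import cochaperone, was lower with the block (-0.33, adjusted p = 3.94e-05). All of these were in the same direction in 3 of 3 pairs. Among genes with at least 1 CPM, 24.1% were higher and 29.0% lower in 3 of 3 pairs. These cochaperones were also called with any 1 pair left out, which does not measure the spread between pairs. The pair was called in 13 of the 15, and replicate 3 was the highest library in both lines in 11 of the 15. Among genes with at least 1 CPM these shares were 56.5% and 30.1%, and with at least 50 CPM 70.6% and 38.7%.

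The cytosolic chaperonin TRiC, which folds actin and tubulin, gave the most even pattern. In all 8 of its subunits the pair was called and replicate 3 was the highest library in both lines, with a median step of 0.46 from pair 2 to pair 3, against 0.41 for the HSP90 cochaperones, 0.43 for the other HSF1 targets, 0.27 for the members and -0.01 for all genes. Between the lines, CCT2 was higher with the block (0.22, adjusted p = 0.00223), TCP1 was lower (-0.20, 0.00502; 0.0519 without pair 2), and CCT8 was at -0.13 (adjusted p = 0.0597). The list of HSP90 and HSP70 chaperones of the organelles differed from this. The pair was called in 1 of 5, and replicate 3 was highest in both lines in 0 of 5. Among genes with at least 50 CPM these shares were 70.6% and 38.7%. The mitochondrial chaperones HSPD1 and HSPE1 are not in this list. In both the pair was called and replicate 3 was the highest library in both lines. TRAP1, the mitochondrial HSP90, was at -0.08 between the lines (adjusted p = 0.316 with the block).

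Prefoldin, which hands unfolded chains to TRiC, had 1 subunit higher and 2 lower of 6 with the block, against 9.32% and 10.4% of all genes. PFDN4 measured 23.5, 22.4 and 24.9 CPM in the std library, replicate 2 and replicate 3 of pBabe-GNA13 and 32.8, 32.9 and 34.8 CPM in replicates 1, 2 and 3 of pBabe-vector. The groups did not overlap, and the log2 fold change was -0.50 without the block, where its adjusted p was 0.181, and -0.51 with it (adjusted p = 2.29e-06, edgeR). PFDN5 was higher (0.20, adjusted p = 0.00697 with the block) and PFDN6 lower (-0.22, 0.00482). Neither was called without pair 2 (adjusted p = 0.0521 and 0.0938) or without pair 3 (0.0544 and 0.055).

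**Figure D5:**
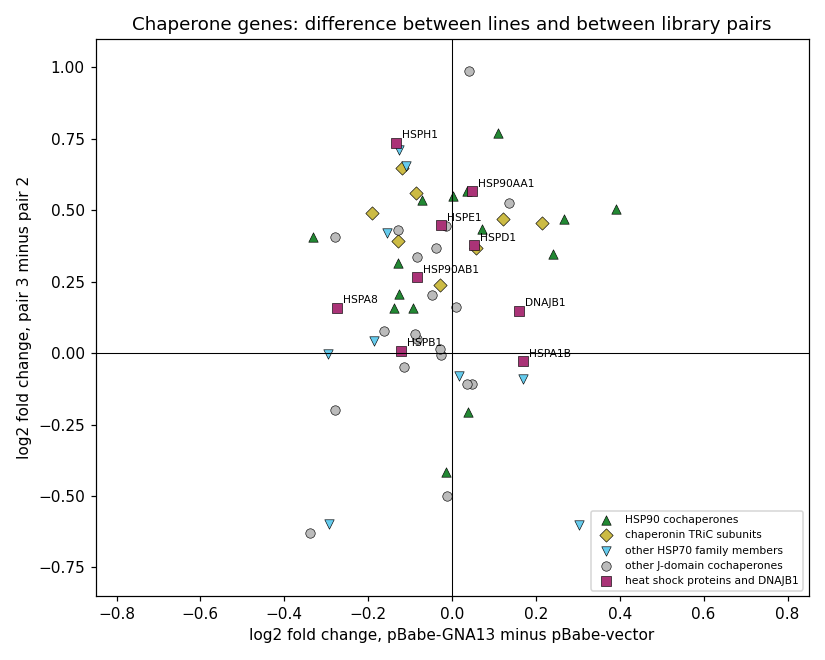
Log2 fold change between the lines (x axis) against that from pair 2 to pair 3 (y axis) for chaperone genes with a mean of at least 1 CPM, each point 1 gene, coloured by list. The points spread more along the y axis than along the x axis, and all 8 TRiC subunits lie above 0 on it.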

How the data were processed

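Total RNA of LnCaP cells was sequenced as paired reads of 150 nt, and per the study's methods the authors assessed the reads with FastQC 0.11.7, aligned them with STAR to Gencode 38 and aggregated them with featureCounts. The authors deposited raw counts, whole numbers per gene symbol, although the table is named for CPM. All 6 of its columns entered the fits, and 0 columns of other samples were present. The pBabe-GNA13 column with the tag std carries the same number as replicate 2, and it was therefore assigned to the line and to no numbered replicate. Strand use in counting is not given in the sources used here, and overlapping or antisense genes may share reads.

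Counts of all 17297 genes were normalized by TMM and tested with the quasi-likelihood test of edgeR 4.0.16 (R 4.3.3; glmQLFit with the legacy method and an abundance trend) and Benjamini-Hochberg adjustment. The line was the only term, as the study names no block. A second fit added the library pair. Deviations of 12778 genes from the line means correlated at 0.659 in pair std, 0.807 in pair 2 and 0.888 in pair 3, and at -0.736 to 0.125 in the other combinations, so the pairs were taken as real. They come from the numbers and the tag std in the headings. CPM are TMM-normalized, log2 CPM used a prior count of 2, each ± is an SD over 3 libraries unless named SE, and intervals are 95%. Values from depth cover counting error only, because duplicates could not be told from separate molecules. DESeq2 1.42.0, limma 3.58.1 (limma-trend), other scaling, a low-count filter, left-out libraries and pairs, and values relative to the median of the gene's own chromosome were the alternatives. DESeq2, limma-trend and edgeR's newer method with the block were chosen after seeing the data.

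The genes named are the 10 members, GNA13, HSF1, HSF2, of each chaperone list the 3 genes with the smallest p without the block (mean CPM 1 or more), and for the 2 members with the widest range the 3 nearest other genes (mean CPM 10 or more). Of these, 1 gene is not reported here. KLK2, KLK3, KRT8, KRT18, TMPRSS2 and the basal, fibroblast and endothelial markers named were taken from the marker lists after their values were seen. SERPINH1 and DNAJA1 were taken from the list of HSF1 targets in the same way. The members and lists were chosen with earlier results of these data known. Positions and transcript lengths come from Gencode 44 on GRCh38 and promoters from RefSeq, whose gene models may differ from those counted. Figures were drawn with matplotlib 3.10.9 (Python 3.11.15).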

Additional observations from a re-analysis of the deposited data

How the results depend on the processing

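Without the block no member was called under any alternative: DESeq2, limma-trend, edgeR's newer method, DESeq2 size factors, a low-count filter, values relative to the gene's own chromosome, or any left-out library. The count over all genes, 24, was 271 with DESeq2, 5 with limma-trend, 13 relative to the own chromosome and 2 to 15 with 1 library left out. With the block it was 3407, and 2550, 2250 and 3266 without pair 2, pair 3 and pair std, 2145 relative to the own chromosome, 2000 with DESeq2, 433 with limma-trend and 3129 with edgeR's newer method. Members called with the block were 1 of 10, 1, 3 and 4 without pair 2, pair 3 and pair std, 1 relative to the own chromosome, 1 with DESeq2, 0 with limma-trend and 1 with the newer method. The paired HSPA8 value of -0.28 (adjusted p = 0.000101) was -0.28 with DESeq2 and with the newer method, -0.23 relative to the own chromosome and -0.31 to -0.26 with 1 pair left out, all called. Without pair 2, pair 3 and pair std the blocked value was -0.024, 0.28 and 0.23 for HSPA1B and -0.021, 0.34 and 0.20 for DNAJB1, reversed in the first fit and called in the others, and HSPB1 was called without pair std (-0.19). The block changed no other member's call, and calls with a pair left out do not measure the spread between pairs.

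With 1 library left out and no block, uncalled values changed sign for HSPA1A (-0.58 to 0.080), HSP90AA1 (-0.22 to 0.35), HSP90AB1 (-0.19 to 0.0066), HSPH1 (-0.44 to 0.28), HSPD1 (-0.078 to 0.15) and HSPE1 (-0.21 to 0.13). HSPD1 also did so relative to its own chromosome (-0.024, and -0.028 with the block), and HSPA1A did with the counts of HSPA1A and HSPA1B summed (0.16). The count of 9 members with a pair effect was 5 without pair 3. The causes were not tested, other than that fits with libraries left out have fewer samples. The 12 to 37 reads of HSPA1A limit what can be said of it.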

Other observations

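Replicate 2 of pBabe-GNA13 was the highest of the 6 libraries for 2 of the 9 members with at least 1 CPM, HSPA1B and DNAJB1, and for 4 of 18 other HSF1 target genes, against 18.7% of all 14059 such genes. It was the lowest library for 2 of the 9 members and for 8 of the 18 targets, among them BAG3 (75.3 CPM) and HSPA4L (23.1 CPM), against 22.9% of all genes. These targets, HSPA6, CRYAB and HSPA1L were named after their values were seen. HSPA6, an inducible HSP70 known for being almost silent without stress, had 113 reads in this library, against 11 in the std library and 34 in replicate 3 of pBabe-GNA13 and 6, 12 and 20 in replicates 1, 2 and 3 of pBabe-vector. Its log2 fold change was 2.06 (adjusted p = 0.585, edgeR without the block) and 1.85 with the block (adjusted p = 0.00118). Without pair 2 the blocked value was 0.76 (adjusted p = 0.383), so that the call rests on this pair. CRYAB, a small heat shock protein, had 130 reads there and 32 to 56 in the other 5 libraries. HSPA1L, an HSP70 gene beside HSPA1A that is not known for heat induction, had 228 reads there and 107 to 177 elsewhere. Neither HSPA1L (adjusted p = 0.205 with the block) nor CRYAB without pair 2 (adjusted p = 0.549) was called.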
